A study of Mus musculus with 10 samples.

Results

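The comparison described here is of splenic Ly6C-high monocytes taken from WT mice on day 5 after MI with those taken on day 5 after sham surgery, and it rests on 6 of the 10 RNA sequencing libraries of the study. All 6 libraries came from male C57BL/6 mice. MI was made by tying off the left anterior descending artery of the heart for good, and in sham surgery the chest was opened without ligation. The sham group holds replicates 1, 2 and 3 and the MI group holds replicates 2, 3 and 4, and each library was taken as 1 animal, because the labels name no pools; the p-values measure the spread between these libraries. Every operated mouse received buprenorphine. The labels describe diphtheria toxin for the ablation of regulatory T-cells without saying which WT animals received it. For the sequencing, the paper describes the WT mice compared with Foxp3DTR mice after MI as given the toxin. It does not say so of the sham mice, so toxin and MI cannot be told apart if the MI group alone was injected. The other 4 libraries came from Foxp3DTR mice after MI, which carry the diphtheria toxin receptor in Foxp3-expressing cells, and they enter here through the estimate of the spread and where a value is stated. The question was whether the infarct alone altered the RNA of these cells. Genes were compared when they had 1 TPM (transcript per 1e6 transcripts) or more in at least 3 of the 6 WT libraries, which kept 12351 of 24421 gene symbols.

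Ly6C-high monocytes are short-lived myeloid cells that are made in the bone marrow and, after injury, also in the spleen. They leave these sites along chemokine gradients through the receptor CCR2, enter the injured myocardium, and there clear debris and become macrophages. In the steady state some of them turn into Ly6C-low patrolling monocytes, a step that needs the nuclear receptor NR4A1. Production of monocytes passes through granulocyte and monocyte progenitors, which also express genes of neutrophil granules.

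The genes of the sort markers were abundant in all 6 libraries. Cells had been depleted of T- and B-cells and then sorted for CD11b, F4/80, CD115 and high Ly6C and against Ly6G. Itgam, which encodes CD11b, was at 359, 330.4 and 339 TPM in the sham libraries and 360.1, 348 and 296 TPM in the MI libraries, in the order of the replicate numbers, which holds throughout. The levels given are TPM after division by 1 factor per library. Csf1r, the gene of CD115, was at 897, 702 and 543 TPM in the sham libraries and 754, 766 and 691 TPM in the MI libraries. Adgre1, the gene of F4/80, was at 158, 125 and 139 TPM in the sham libraries and 132, 142 and 178 TPM in the MI libraries. The inferred depth lay between 3.13 and 8.40 M reads per library (M, 1e6), lowest in sham replicate 2 and with overlapping ranges in the groups. Sham replicate 3 stood apart in markers of other cells. The summed markers of T-cells were at 24.9, 35.1 and 220 TPM in the sham libraries and 19.2, 22.3 and 19.9 TPM in the MI libraries. Those of NK cells were at 102, 162 and 430.2 TPM in the sham libraries and 85.6, 119.9 and 69.6 TPM in the MI libraries, and those of erythroid cells at 14.6, 69.4 and 334 TPM in the sham libraries and 16.1, 10.4 and 29.3 TPM in the MI libraries. Sham replicates 1 and 2 were above every MI library for T-cell markers as well. For NK cell markers sham replicate 2 was above every MI library, but sham replicate 1 was below MI replicate 3. Of the T-cell list 10 of 19 genes could be tested, with a median log2 fold change of -1.01 over all libraries and of -0.31 without sham replicate 3. The erythroid genes Hba-a1, Hbb-bt and Hbb-b1 were listed at 0 in all 6 libraries. In RNA of sorted cells, fewer cells of one kind and less RNA per cell cannot be told apart. The medians of the NK cell and erythroid lists were -0.70 and -1.21 over all libraries and -0.27 and -0.65 without sham replicate 3.

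No gene differed between MI and sham surgery at an adjusted p below 0.05, so that the percentage called was 0, and the lowest adjusted p of the limma test was 0.875. An unadjusted p below 0.05 was reached by 567 genes, 4.59% of those tested, 280 with higher and 287 with lower means after MI. The fold changes were centred on 0, with 6221 genes positive (50.4%) and a median standard error of 0.19 on the log2 scale. Without scaling of the libraries, which moved the median of all genes to -0.17, 21.3% were positive, so that all directions given are relative to the median gene. All 3 MI libraries lay above all 3 sham libraries for 408 genes (3.3%) and below them for 435 genes (3.52%). The libraries were not separated by surgery as a whole. The median absolute log2 difference between a pair of libraries was 0.22 to 0.33 within the sham group, 0.25 to 0.27 within the MI group and 0.21 to 0.35 between the groups.

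The data set limits on the size of a difference for most genes. For 9744 genes (78.9%) the 95% interval of the fold change lay within 2-fold in both directions on the log2(TPM + 1) scale. For the other 2607 genes a difference of 2-fold or more stayed within the interval on at least one side. That scale understates the fold change of low genes, so that for them the limit in TPM can be wider than 2-fold. The precision was lowest for low genes. Of the 2250 genes under 5 TPM, 41.0% had an interval within 2-fold, whereas of the 5011 genes between 20 and 100 TPM 93.9% and of the 1658 genes over 100 TPM 90.3% had one. The direction also followed the level. The fold change was positive for 38.3% of genes under 5 TPM, 44.0% of those from 5 to 20 TPM, 53.5% of those from 20 to 100 TPM and 70.4% of those over 100 TPM. Among the 1658 genes over 100 TPM, 75 were higher in every MI library (4.52%) and 19 were lower (1.15%). Counts for abundant gene groups are therefore set beside these shares.

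**Figure D1:**
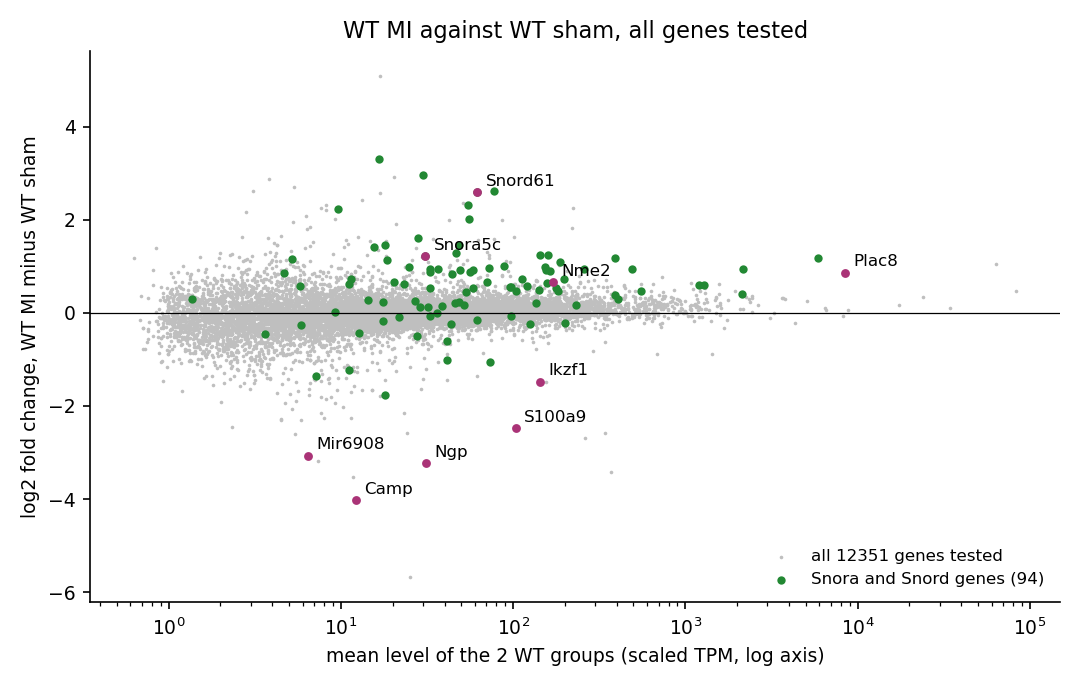
Fold change of each of the 12351 genes (log2, MI minus sham) against its mean level over both WT groups (scaled TPM, log axis), with grey points for all genes, green for the 94 Snora and Snord genes and purple for genes named in the text. The cloud narrows toward higher levels and lies slightly above 0 over 100 TPM, and 75 of the 94 Snora and Snord points are above the line at 0.

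The genes that identify Ly6C-high monocytes were at similar levels in both groups, with one exception in the order of the libraries. Of 21 such genes tested, 14 had a positive and 7 a negative fold change, the median was 0.08 (log2), and 16 had an interval within 2-fold. Plac8, a small cysteine-rich protein that is abundant in inflammatory monocytes (chr5:100553733-100572205, mm10), was at 6149, 6313 and 5406 TPM in the sham libraries and 9874, 9030.1 and 14113 TPM in the MI libraries. It was the exception, with all MI libraries above all sham libraries (log2 fold change 0.86, SE 0.34, 95% interval 0.11 to 1.61). Ly6c2, which encodes the Ly6C antigen used in the sort, was at 1899, 1524 and 2606 TPM in the sham libraries and 2160.1, 2218 and 3141 TPM in the MI libraries, and the groups overlapped (log2 fold change 0.33, SE 0.28, 95% interval -0.28 to 0.94). Its near copy Ly6c1 overlapped too (log2 fold change 0.71, SE 0.44), and the pair can share reads. Ccr2, the chemokine receptor for exit from marrow and spleen, was at 1614, 922 and 1557 TPM in the sham libraries and 1429, 1404 and 1297 TPM in the MI libraries. Its fold change of 0.06 had a 95% interval of -0.41 to 0.52, which leaves out a 2-fold difference either way. Fn1, the gene of fibronectin, was at 1574, 2269.9 and 1784 TPM in the sham libraries and 1602, 1456 and 1415 TPM in the MI libraries (log2 fold change -0.32, SE 0.24). The fold changes of the gate genes Itgam, Csf1r and Adgre1 were -0.04, 0.07 and 0.09, each with an SE of 0.12 to 0.18.

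Of 27 genes of the patrolling Ly6C-low state that were tested, Fcgr4 was higher and Cd9 lower in every MI library, 3.7% each way, which is near the 3.3% and 3.52% of all genes. Positive fold changes were found for 20, with a median of 0.21 and of 0.10 without sham replicate 3. Nr4a1, the nuclear receptor that this state needs, was at 337, 627 and 155 TPM in the sham libraries and 246, 341 and 312 TPM in the MI libraries. The sham libraries alone spanned more than the MI libraries did, and the fold change was -0.11 (SE 0.38). Cx3cr1, the fractalkine receptor, was at 314, 255 and 129 TPM in the sham libraries and 289, 342 and 162 TPM in the MI libraries (log2 fold change 0.21, SE 0.34). Sham replicate 3 and MI replicate 4 had the lowest Cx3cr1 of their groups. Fcgr4, an Fc receptor of Ly6C-low cells, was at 77.8, 6.59 and 75.98 TPM in the sham libraries and 81.8, 101 and 82.1 TPM in the MI libraries. Sham replicate 2 was low, and the fold change was 1.31 with it and 0.19 without it. Cd9, a tetraspanin, was lower in every MI library (7.14, 12.5 and 14.2 TPM in the sham libraries and 4.25, 5.97 and 4.48 TPM in the MI libraries, log2 fold change -1.02, SE 0.29).

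**Figure D2:**
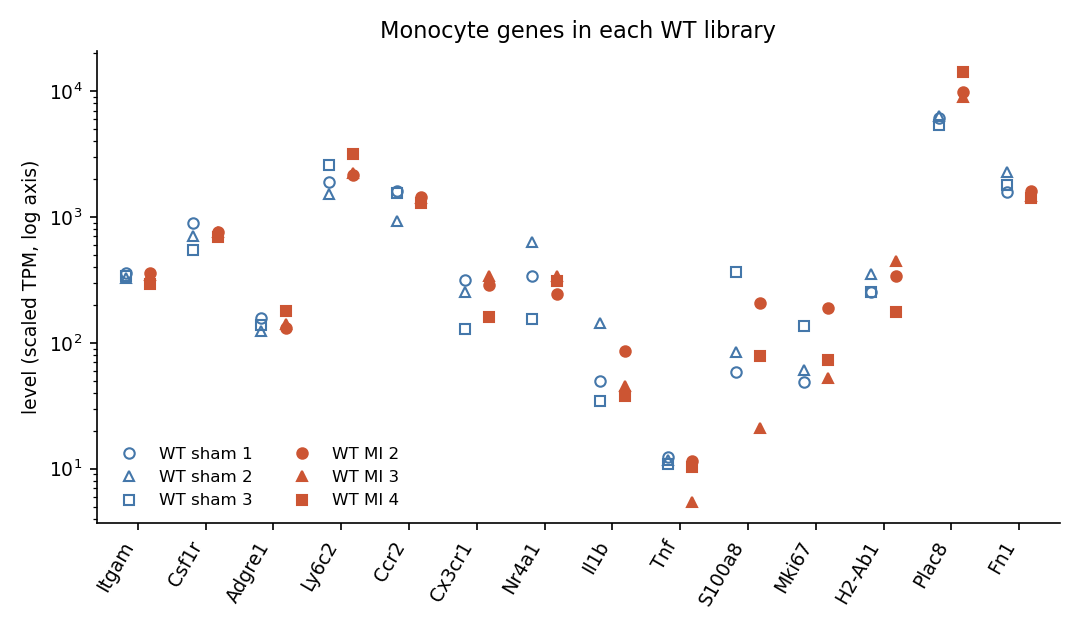
Level of 14 monocyte genes (scaled TPM, log axis) in each WT library, with open blue symbols for sham replicates 1 to 3 and filled orange symbols for MI replicates 2 to 4. The groups overlap for 13 of the genes, and Plac8 is the gene whose MI libraries all lie above the sham libraries.

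Camp and Ngp, genes of late neutrophil maturation, were lower in every MI library, while genes of primary granules were not. Ltf and Retnlg, also of late maturation, were lower too, in an order that the filter fixed. Neutrophils had been gated out by Ly6G. The granule genes are read here as members of the neutrophil marker list, of which 14 of 18 genes could be tested. Of the 14, 5 were lower in every MI library (35.7%, against 3.52% of all genes) and 0 were higher. The 5 include Ltf and Retnlg, which the filter bound to be counted as lower, so this share is raised by the filter. The list median was -0.26, and -0.04 without sham replicate 3. Mmp8, Csf3r and Ltb4r1 of this list overlapped between the groups, with log2 fold changes of -0.07, -0.36 and -0.15. Camp, the cathelicidin antimicrobial peptide (chr9:109847377-109849456), shared the lowest adjusted p of all genes and was at 16.8, 12.3 and 43.03 TPM in the sham libraries and 1.41, 0 and 0 TPM in the MI libraries. Its log2 fold change was -4.03 (SE 0.67, adjusted p = 0.875, limma). Ngp, neutrophilic granule protein, was at 26.5, 11.2 and 141 TPM in the sham libraries and 3.48, 2.78 and 2.35 TPM in the MI libraries (log2 fold change -3.24, SE 0.78). Retnlg, the resistin-like protein gamma of neutrophils, was at 1.35, 8.02 and 34.6 TPM in the sham libraries and was listed at 0 in all 3 MI libraries. The lactoferrin gene Ltf was at 1.2, 1.81 and 23.5 TPM in the sham libraries and 0.309, 0 and 0 TPM in the MI libraries. Sham replicate 3 was the highest library for all 4 genes, and sham replicates 1 and 2 were still above every MI library. Ltf and Retnlg reached 1 TPM in the sham libraries alone, so the filter fixed their place above the MI libraries. Camp, Ngp and Retnlg were also picked for not overlapping. Lcn2, lipocalin-2 of the same granules as Ltf, overlapped between the groups at 20.4, 6.34 and 67.7 TPM in the sham libraries and 29.8, 4.78 and 50.9 TPM in the MI libraries. Without sham replicate 3 the log2 fold changes were -3.51 for Camp and -2.25 for Ngp.

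The primary granule proteases and peroxidase showed another order of libraries. Summed over Elane, Mpo, Prtn3 and Ctsg, which encode neutrophil elastase, myeloperoxidase, proteinase 3 and cathepsin G, the level was 90.5, 25.6 and 129.8 TPM in the sham libraries and 218, 69.3 and 128 TPM in the MI libraries. MI replicate 2 was the highest and sham replicate 2 the lowest. Their fold changes were all positive, from 0.40 for Mpo to 1.04 for Prtn3, and the groups overlapped for each of the 4. These 4 genes, Ltf and Lcn2 were set apart after their values were seen. The grouping by granule type was likewise made afterwards and was not tested.

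The genes of calprotectin, S100a8 and S100a9, did not keep the same order of libraries. S100a9 was at 64.3, 89.3 and 394 TPM in the sham libraries and 29.01, 13.1 and 31.02 TPM in the MI libraries, lower in every MI library (log2 fold change -2.48, SE 0.64, 95% interval -3.90 to -1.06), and its fold change without sham replicate 3 was -1.69. S100a8, its partner subunit, was at 58.3, 83.9 and 364 TPM in the sham libraries and 206, 21.1 and 78.7 TPM in the MI libraries (log2 fold change -0.78, SE 0.81, and 0.01 without sham replicate 3), and the groups overlapped. MI replicate 2 had more S100a8 than sham replicates 1 and 2 but less S100a9 than any sham library. Markers of T-cells, NK cells and erythroid cells were high in sham replicate 3 beside the granule genes, and their part in these values was not tested.

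The genes of lowest p with higher levels after MI did not pass the test either. The rule took the 10 of lowest p each way among genes with no overlap between groups and at least 5 TPM in 1 of them. Nme2, a nucleoside diphosphate kinase, was at 124, 137 and 132 TPM in the sham libraries and 237, 164 and 228 TPM in the MI libraries (log2 fold change 0.66, SE 0.15), and it can share reads with its near copy Nme1. Sdhaf1, an assembly factor of mitochondrial complex II, was at 36.03, 26.97 and 28.2 TPM in the sham libraries and 46.9, 56.5 and 47.1 TPM in the MI libraries (log2 fold change 0.71, SE 0.16). Ndufaf2, an assembly factor of complex I, was at 8.32, 6.07 and 10.1 TPM in the sham libraries and 16.7, 17.2 and 17.1 TPM in the MI libraries (log2 fold change 0.999, SE 0.27). Both assembly factors were higher in every MI library, as the rule required. Ppp1r3e, a subunit that directs protein phosphatase 1 to glycogen, was at 3.55, 2.67 and 3.5 TPM in the sham libraries and 5.67, 6.74 and 10.3 TPM in the MI libraries (log2 fold change 0.99, SE 0.23). Pde4dip, a centrosomal and Golgi scaffold, was at 10.6, 10.6 and 11.7 TPM in the sham libraries and 24.7, 23.6 and 17.6 TPM in the MI libraries (log2 fold change 0.93, SE 0.25). Others were Adal, an adenosine deaminase-like gene (log2 fold change 0.49, SE 0.14), Smim24, a small integral membrane protein (log2 fold change 0.77, SE 0.19), the uncharacterised LOC100504703 (log2 fold change 1.54, SE 0.43) and Lbhd1, described below. The adjusted p of each was 0.975.

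Among the genes of lowest p with lower levels after MI, Camp, Ngp, Retnlg and S100a9 were granule genes. The remaining 6 were at low to moderate levels. Hmces, which shields abasic sites in single-stranded DNA, was at 6.51, 6.11 and 7.22 TPM in the sham libraries and 3.01, 3.33 and 2.99 TPM in the MI libraries (log2 fold change -0.89, SE 0.18). Tspan17, a tetraspanin, was at 10.5, 18.8 and 15.3 TPM in the sham libraries and 4.34, 7.21 and 6.43 TPM in the MI libraries (log2 fold change -1.17, SE 0.23). Sh3bp5, an adaptor of the kinase JNK at mitochondria, was at 57.4, 74.4 and 61.1 TPM in the sham libraries and 44.3, 49.9 and 44.5 TPM in the MI libraries (log2 fold change -0.46, SE 0.11). It had the smallest of these 6 differences and the narrowest interval. The zinc finger gene Zfp90 (-0.87), the cilium gene Enkur (-0.996) and the Polycomb group gene Scmh1 (-0.72) had standard errors of 0.21 to 0.28. The clone E330009J07Rik was at 8.17, 13.4 and 11.6 TPM in the sham libraries and 5.86, 5.49 and 5.41 TPM in the MI libraries (log2 fold change -0.85, SE 0.19).

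**Figure D3:**
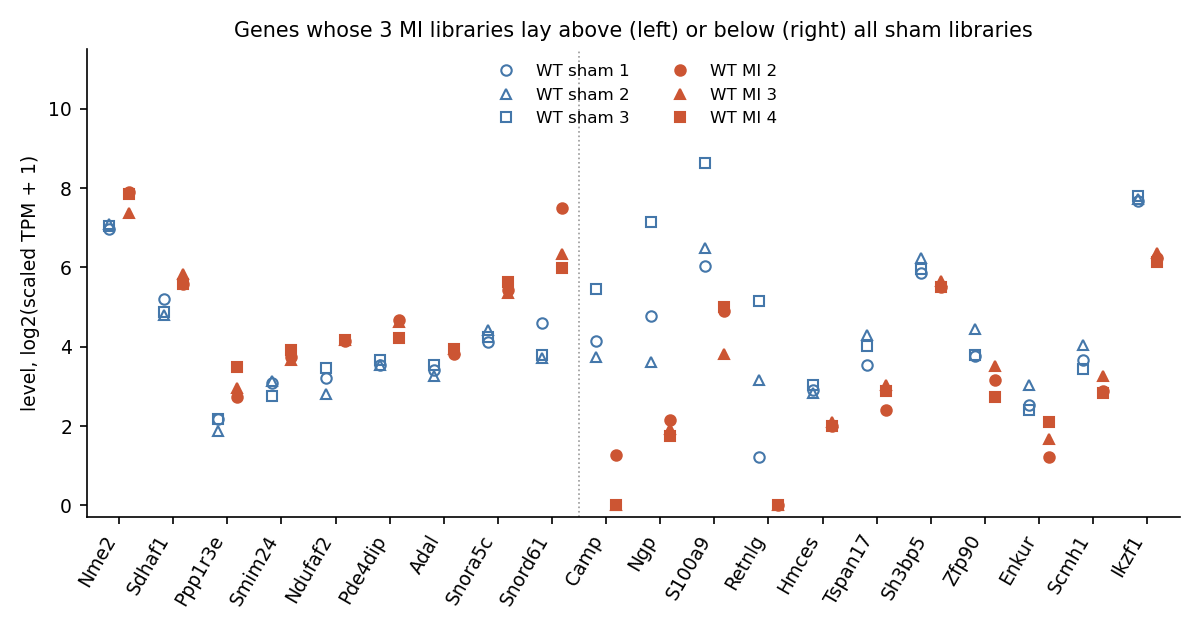
Level, as log2(scaled TPM + 1), of 9 genes higher (left of the dotted line) and 11 genes lower (right) in every MI library, with open blue symbols for sham and filled orange symbols for MI replicates. The genes were chosen for not overlapping and none passed the adjusted test, and sham replicate 3 (open squares) is the highest library for Camp, Ngp, S100a9 and Retnlg.

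Genes of oxidative phosphorylation and of the cytosolic ribosome had small differences that were mostly positive, beside 18 other gene groups examined. Of 64 subunits of the respiratory chain and ATP synthase, 55 had a positive fold change (85.9%) and 9 were higher in every MI library (14.1%, against 3.3% of all genes and 4.52% of genes over 100 TPM), 0 being lower in every MI library. Their median log2 fold change was 0.17, all 64 intervals lay within 2-fold, and 43 of them were over 100 TPM, a level at which 70.4% of all genes were positive. Uqcrh, a hinge subunit of complex III, was at 394, 499.6 and 501 TPM in the sham libraries and 712, 606 and 646 TPM in the MI libraries (log2 fold change 0.50, SE 0.15). Atp5e, the epsilon subunit of ATP synthase, was at 211, 188 and 232 TPM in the sham libraries and 332, 274 and 315 TPM in the MI libraries (log2 fold change 0.55, SE 0.18). Sdhc, a membrane subunit of complex II, was at 89.95, 81.5 and 80.97 TPM in the sham libraries and 109.8, 93.9 and 104 TPM in the MI libraries (log2 fold change 0.28, SE 0.10). For all 3 the lowest MI library lay above the highest sham library. Of 75 ribosomal protein genes, 69 were positive (92%), 6 were higher in every MI library (8%), 67 were over 100 TPM, and the median was 0.17. Rpl7a and Rpl11, 2 proteins of the large subunit, had fold changes of 0.39 and 0.40 (SE 0.14 and 0.17). Leaving out 1 WT library moved the medians from 0.06 to 0.25 for oxidative phosphorylation and from 0.08 to 0.28 for the ribosome. Without scaling both medians were -0.01, beside a median of -0.17 over all genes. Genes of the mitochondrial genome were not analysed here.

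The medians of cell cycle genes depended on single libraries. Of 30 mitosis genes 26 were positive, with a median of 0.40, but of the 30 only Kif23 had an interval within 2-fold and 0 were free of overlap. Their summed level was 265, 247 and 573 TPM in the sham libraries and 913, 246 and 372 TPM in the MI libraries, highest in MI replicate 2 and next in sham replicate 3. Mki67, the proliferation antigen Ki-67, had the same 2 highest libraries at 48.7, 61.1 and 136 TPM in the sham libraries and 189, 52.4 and 73.03 TPM in the MI libraries (log2 fold change 0.28, SE 0.51). Aurkb, a mitotic kinase, and Ndc80, a kinetochore protein, had fold changes of 0.69 and 0.89 (SE 0.38 and 0.43). The median of the mitosis genes was -0.07 without MI replicate 2. It was 0.80 without sham replicate 3 and also 0.80 without MI replicate 3. For 32 genes of DNA replication the median was 0.15. It ranged from -0.15 without MI replicate 2 to 0.51 without sham replicate 3. Rrm1, a subunit of ribonucleotide reductase, was at 13.5, 7.08 and 31.4 TPM in the sham libraries and 43.7, 13.5 and 28.5 TPM in the MI libraries.

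Inflammatory genes were mostly low in both groups. Of 31 cytokines, chemokines and enzymes listed, 21 passed the filter, 14 of them with negative fold changes, and the median was -0.25. Il6, Il12b and Nos2 were among the 10 that did not pass. Il1b, the gene of interleukin-1 beta, was at 50.1, 145 and 34.5 TPM in the sham libraries and 85.7, 45.2 and 37.98 TPM in the MI libraries (log2 fold change -0.25, SE 0.47, 95% interval -1.29 to 0.78). The value of sham replicate 2 was the highest, and the interval allows more than 2-fold in one direction. Tnf was at 12.4, 11.7 and 10.9 TPM in the sham libraries and 11.6, 5.45 and 10.4 TPM in the MI libraries (log2 fold change -0.38, SE 0.27). Csf1, the growth factor of monocytes and macrophages, was lower in every MI library (5.63, 7.27 and 7.95 TPM in the sham libraries and 1.99, 4.18 and 4.36 TPM in the MI libraries, log2 fold change -0.86, SE 0.27). Ccl5, a chemokine of T-cells and NK cells, was lower too, at 33.1, 73.4 and 177 TPM in the sham libraries and 27.4, 31.9 and 27.5 TPM in the MI libraries (log2 fold change -1.36, SE 0.54, and -0.75 without sham replicate 3). Ccl5 was thus highest in the library with the most T-cell and NK cell markers. Leaving out single WT libraries moved the median of the list from -0.50 to 0.05. Of 35 Toll-like receptor and NF-kB pathway genes, 32 had an interval within 2-fold. Their median was 0.06 with 21 positive and -0.04 with 15 positive without sham replicate 3, Myd88, the adaptor of most of these receptors, having a fold change of 0.23 and Tlr1 one of 0.33 (SE 0.13 and 0.16).

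The direction of the interferon-gamma response genes depended on 1 library. Of 40 tested, 26 were negative with a median of -0.11, whereas without sham replicate 3, 30 were positive with a median of 0.13. Cxcl9, an interferon-gamma-induced chemokine, was at 6.85, 3.96 and 31.5 TPM in the sham libraries and 2.47, 3.79 and 2.33 TPM in the MI libraries (log2 fold change -1.51, SE 0.53, and -0.71 without sham replicate 3). Socs1, a feedback inhibitor of JAK kinases, was at 6.53, 16.5 and 25.3 TPM in the sham libraries and 5.37, 6.88 and 5.48 TPM in the MI libraries (log2 fold change -1.14, SE 0.39, and -0.74 without it). Both genes were highest in sham replicate 3. Of 35 type I interferon response genes, 26 were positive with a median of 0.14 and 0.04 to 0.42 on leaving out single WT libraries. Siglec1, a sialic acid receptor induced by interferon, was at 46.3, 16.1 and 28.04 TPM in the sham libraries and 40.4, 80.9 and 71.2 TPM in the MI libraries (log2 fold change 1.13, SE 0.39). Rtp4, another interferon-induced gene, had a fold change of 0.47 (SE 0.19). MI replicate 2 was the lowest MI library for both, and the groups overlapped for all 35 genes.

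Antigen presentation, homing, repair, glycolytic and lysosomal groups had medians from -0.03 to 0.11. Of 20 tested genes of MHC class I presentation, all 20 had an interval within 2-fold, and the median was 0.05, with -0.06 without sham replicate 2 and 0.18 without sham replicate 3. The non-classical class I gene H2-M3 was higher in every MI library (43.1, 35.8 and 48.7 TPM in the sham libraries and 56.8, 57.4 and 49.02 TPM in the MI libraries, log2 fold change 0.36, SE 0.12). H2-Ab1, the MHC class II beta chain, was at 252, 355 and 255 TPM in the sham libraries and 340.3, 443 and 175 TPM in the MI libraries (log2 fold change 0.07, SE 0.30), and the median of 15 class II genes was -0.01. The 23 receptors of egress, homing and retention had a median of 0.00, 19 of them with intervals within 2-fold. S1pr1, the sphingosine-1-phosphate receptor of lymphocyte egress, was at 1.88, 1.88 and 10.8 TPM in the sham libraries and 0.991, 1.07 and 0.744 TPM in the MI libraries, highest in the library rich in T-cell markers (log2 fold change -1.26, SE 0.48, and -0.58 without that library). For 26 genes of wound repair the median was -0.03, Tgfbr2, a TGF-beta receptor, having a fold change of 0.26 (SE 0.17). The growth factor gene Vegfb was lower in every MI library at 3.08, 3.22 and 3.2 TPM in the sham libraries and 1.94, 1.74 and 1.33 TPM in the MI libraries (log2 fold change -0.65, SE 0.30). The medians of 20 glycolytic enzymes and 28 lysosomal genes were 0.01 and 0.11, all 28 of the latter with intervals within 2-fold, as for Ctss, the gene of cathepsin S, with 0.29 and Npc2, a cholesterol carrier of lysosomes, with 0.32. Without sham replicate 3 the medians were -0.13 for wound repair, 0.07 for glycolytic and 0.06 for lysosomal genes. Hk3, a hexokinase of myeloid cells, was at 28.5, 28.9 and 58.1 TPM in the sham libraries and 17.9, 38.3 and 17.4 TPM in the MI libraries.

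The stress and steroid groups had 0 genes free of overlap between the groups. Of 17 hypoxia genes 2 were higher (11.8%) and 1 was lower in every MI library (5.88%). Of 30 transcription factors 0 were higher and 3 were lower (10%). Among all genes the shares were 3.3% higher and 3.52% lower. Of the 3 lower factors, Gata2 reached 1 TPM in the sham libraries alone, so the filter fixed its order. Of 29 immediate-early and stress genes 23 were negative with a median of -0.09, but the median was 0.35 without sham replicate 2. Klf6, an early response transcription factor, was at 207, 339.9 and 206 TPM in the sham libraries and 175, 177 and 216 TPM in the MI libraries, and Egr1, another, at 2.58, 11.9 and 7.14 TPM in the sham libraries and 2.99, 2.64 and 5.03 TPM in the MI libraries. Sham replicate 2 was highest for both. The 19 glucocorticoid-responsive genes had a median of 0.06 and of -0.04 without sham replicate 3, and Ddit4, an inhibitor of mTORC1 signalling in this list, was at 93.2, 19.5 and 33.2 TPM in the sham libraries and 77.8, 91.8 and 117 TPM in the MI libraries (log2 fold change 1.24, SE 0.54). The median of the hypoxia genes was 0.14 and 0.07 without sham replicate 3. The hypoxia target Ankrd37 was higher in every MI library (0.63), as was Mxi1, a MAX-binding repressor named after its values were seen, and Egln3, a HIF prolyl hydroxylase, was lower (-0.65), with standard errors of 0.24 and 0.30. Of the transcription factors of monocyte fate, 18 were negative, the median was -0.07 (-0.16 without sham replicate 3), and Ikzf1, Zeb2 and Gata2 were lower in every MI library. Zeb2, a zinc finger factor of the monocyte lineage, was at 358, 538 and 342 TPM in the sham libraries and 198, 264 and 337 TPM in the MI libraries (log2 fold change -0.63, SE 0.21), and Gata2, a factor of stem and progenitor cells and of basophils, at 1.46, 1.27 and 2.01 TPM in the sham libraries and 0.261, 0.102 and 0.342 TPM in the MI libraries (log2 fold change -1.06, SE 0.37).

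**Figure D4:**
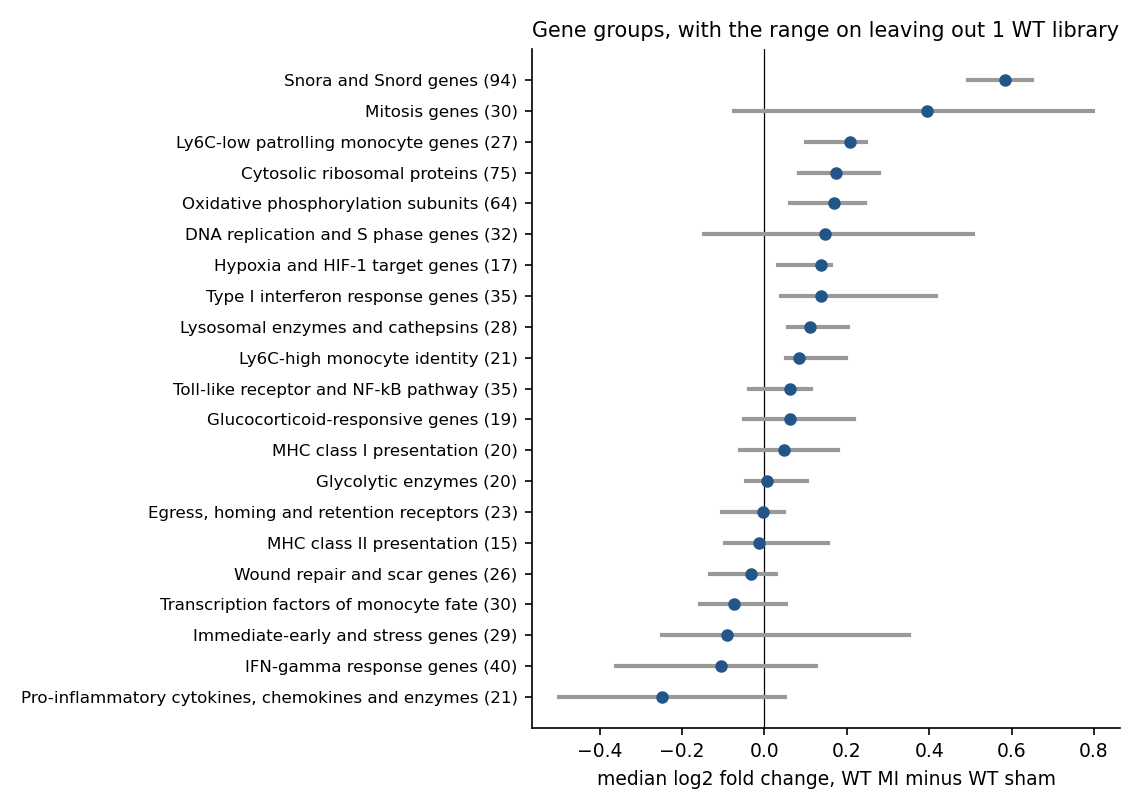
Median log2 fold change (MI minus sham) of the tested members of 20 gene groups and of the Snora and Snord genes, with the number of genes in parentheses; points are medians over all libraries and grey bars the range of the median on leaving out 1 WT library at a time. Among the bars that cross 0 are those of mitosis, DNA replication, interferon-gamma response and immediate-early genes, and the snoRNA bar lies between 0.49 and 0.65.

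Small nucleolar RNAs (snoRNAs) had a larger median fold change over all libraries than any of the 20 gene groups, and they were grouped after their values were seen, so that no test is attached to them. SnoRNAs of the Snora and Snord families guide chemical modification of ribosomal RNA, and most are cut from introns of host genes. Of 94 such genes tested, 75 had positive fold changes, 21 were higher in every MI library (22.3%) and 2 were lower in every MI library (2.13%), Snora65 and Snord87, against 3.3% and 3.52% of all genes and 4.52% and 1.15% of genes over 100 TPM. Their median log2 fold change was 0.58, and it lay between 0.49 and 0.65 on leaving out single WT libraries. It was 0.41 without scaling and 0.51 after quantile normalization, and 0.36 with the replicate number as a block. Only 5 of the 94 had an interval within 2-fold. Snora5c (chr11:6620319-6620419, minus strand) shared the lowest adjusted p with Camp and was at 16.3, 20.5 and 18.1 TPM in the sham libraries and 42.4, 39.7 and 48.8 TPM in the MI libraries (log2 fold change 1.21, SE 0.21, 95% interval 0.75 to 1.67). Snord61 (chrX:57391448-57391509) was at 23.05, 12.1 and 12.8 TPM in the sham libraries and 181, 80.4 and 62.3 TPM in the MI libraries (log2 fold change 2.58, SE 0.53). All MI libraries were above all sham libraries for both, as the rule that picked them required. The abundant Snord15b (chr7:99479563-99479707) was at 3854, 2741 and 4489 TPM in the sham libraries and 8307, 8328 and 7762 TPM in the MI libraries, and Snord83b at 1757, 1324 and 1385 TPM in the sham libraries and 2734, 2349 and 3473 TPM in the MI libraries. The median level over all 94, as log2(TPM + 1), was 4.91, 5.65 and 5.21 in the sham libraries and 5.95, 5.58 and 5.94 in the MI libraries. Sham replicate 2 was therefore above MI replicate 3 in this median. The 13 snoRNA host genes of the Snhg family and Gas5 had a median fold change of 0.14. SnoRNA genes are short and lie in transcribed introns, and in libraries of 50-base reads their TPM can also hold reads of the unspliced host transcript.

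The sum of 2 very abundant entries was also higher in the MI libraries. Rn45s, the precursor of the large ribosomal RNAs, and Mir6236, an entry with a microRNA name, together made up 11.1, 10.6 and 12.6% of all deposited TPM in the sham libraries and 13.7, 16.6 and 19.00% in the MI libraries. All MI libraries were above all sham libraries in this sum. Mir6236 alone made up 3.11, 4.21 and 5.63% in the sham and 6.39, 8.36 and 8.46% in the MI libraries, again without overlap, whereas Rn45s overlapped. These entries were chosen after their values were seen. The 10 most abundant RNAs held 20.6 to 24.2% of TPM in the sham libraries and 24.8 to 30.3% in the MI libraries, and since TPM is a share, a larger share of these leaves less for all others before scaling. Rmrp and Rpph1, the RNAs of RNase MRP and RNase P, did not share that order. Rmrp was at 4106, 12496 and 11479 deposited TPM in the sham libraries and 8895, 7642 and 6667 in the MI libraries. The part of these shares in the snoRNA values was not tested.

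Entries with microRNA names are loci here, because libraries of this kind do not measure mature microRNAs as such. Of 328 tested, 171 were positive with a median of 0.04, and 28 had an interval within 2-fold. In every MI library 16 were higher (4.88%) and 9 were lower (2.74%), against 3.3% and 3.52% of all genes. Mir6407 (chr19:53010656-53010756) was at 0.484, 0 and 0 TPM in the sham libraries and 5.86, 6.4 and 5.86 TPM in the MI libraries, and Mir6908 (chr10:78445095-78445157) was at 2.64, 27.7 and 7.99 TPM in the sham libraries and 0, 0 and 0.6 TPM in the MI libraries. These 2 were the microRNA entries of lowest p with no overlap, 1 in each direction, and neither passed the test. Mir6407 reached 1 TPM in the MI libraries alone and Mir6908 in the sham libraries alone, so the filter fixed their order. The mature sequences of Mir6236 and Mir6908 are shown. Mir6236 is the most abundant entry with a microRNA name, and Mir6908 had the lowest p among the microRNA entries lower in every MI library. The sequences are those of RefSeq for GRCm38.p6, with the seed, bases 2 to 8, in capitals.
mmu-miR-6236: gCCGUCGCcggcagucagg
mmu-miR-6908-5p: uUGCCUGUcagggagagcccca
mmu-miR-6908-3p: aCACUCUCccuugugcuggcag
The 3 seeds differ from each other. The entries lie on chr9:110281287-110281409 for Mir6236 and on the minus strand of chr10 for Mir6908.

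**Figure D5:**
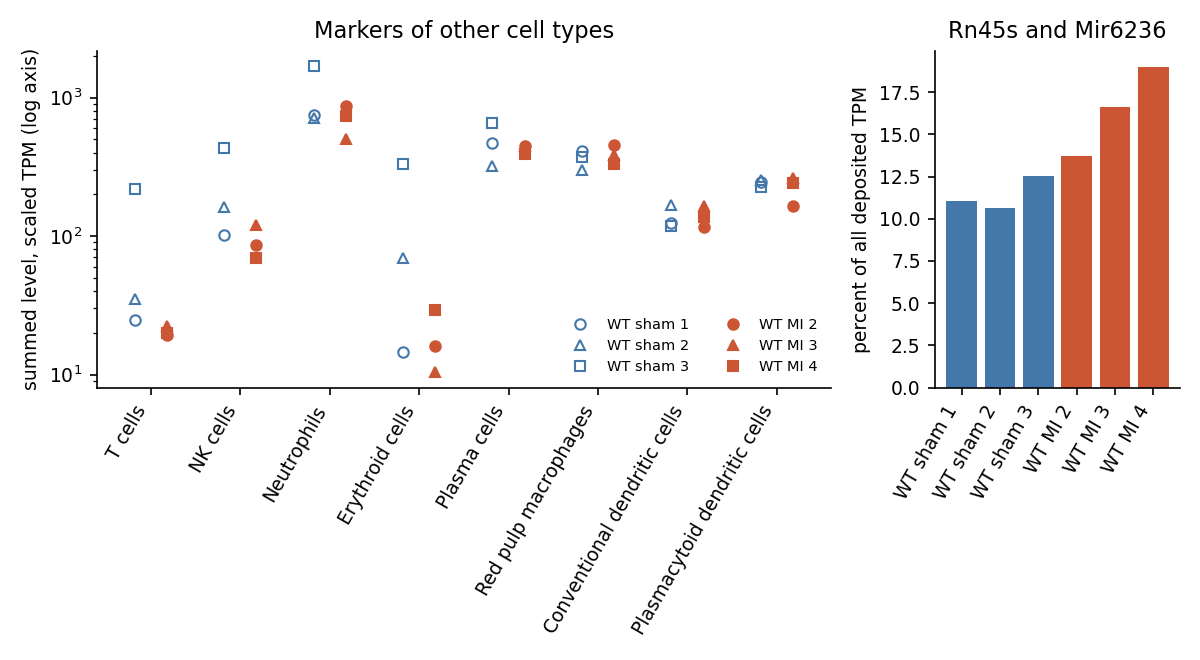
Left, summed level of the markers of 8 other cell types (scaled TPM, log axis) in each WT library, with open blue symbols for sham and filled orange symbols for MI; right, percent of all deposited TPM in Rn45s and Mir6236 in each library, sham in blue and MI in orange. Sham replicate 3 is highest for T-cell, NK cell, neutrophil, erythroid and plasma cell markers, and the share of the 2 entries is 10.6 to 12.6% in sham and 13.7 to 19.0% in MI libraries.

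Of the 4 genes called under an alternative fit, 2 were overlapping entries of which 1 was at 0 in each library. Lbhd1 (chr19:8883878-8890759) was listed at 0 in all 3 sham libraries and was at 44.02, 29.1 and 28.2 TPM in the MI libraries. The entry 1810009A15Rik (chr19:8888883-8890759), which lies within Lbhd1 on the same strand, was at 51.9, 52.9 and 46.5 TPM in the sham libraries and was listed at 0 in all 3 MI libraries. In the Foxp3DTR libraries 1810009A15Rik was at 53.1, 0, 45.8 and 62.8 TPM and Lbhd1 at 0, 35.9, 0 and 0 TPM. Both were called when the 6 WT libraries were fitted alone (adjusted p = 8.64e-05 and 0.00063, limma). Similar switches fell within groups. Atp6v0c, a subunit of the lysosomal proton pump, was at 379.6, 344 and 367 TPM in the sham libraries and 403, 0 and 560.3 TPM in the MI libraries, while the overlapping pseudogene Atp6v0c-ps2 was at 364 TPM in MI replicate 3 and listed at 0 in the other 5. In all, 86 genes were at 0 in 1 WT library and at 20 TPM or more in another, and 49 of them had microRNA names. Atp6v0c was chosen after its values were seen.

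Ikzf1, which encodes the lymphoid and myeloid transcription factor Ikaros (chr11:11685925-11772926), was at 202, 212 and 220.3 TPM in the sham libraries and 74.7, 82.1 and 68.96 TPM in the MI libraries. The difference was -1.48 on the log2 scale (SE 0.43), with little spread within either WT group. In the Foxp3DTR libraries it was at 274, 254, 284 and 70.9 TPM, so 1 of these was at the level of the MI libraries and 3 above the sham libraries. It was called in the fit of the 6 WT libraries (adjusted p = 0.0116) and without Foxp3DTR replicate 4 (adjusted p = 0.000984), but not with all 10 libraries (adjusted p = 0.975, limma). Tomm6os, an antisense entry that overlaps Tomm6, was at 11.04, 16.1 and 10.1 TPM in the sham libraries and 0.573, 9.96 and 0.192 TPM in the MI libraries and was called without MI replicate 3 (adjusted p = 0.00228). Whether strand was used in counting is unknown here, so reads of Tomm6 and Tomm6os cannot be told apart.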

How the data were processed

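RNA of sorted splenic monocytes was sequenced as single-end reads of 50 bp. Of tools, the processing notes of the submitters list STAR 2.5, StringTie 1.3.0, cutadapt 1.1 and CASAVA 1.4, with mm10 as the build. The authors deposited 1 table per library with coverage (a signal), FPKM and TPM per gene, so that no count test was run. FPKM and TPM were deposited already divided by gene length and library size. Depth was inferred from coverage over FPKM, a ratio constant within 1% for 85% of entries, and no counting error can be given for single values. Precision therefore comes from the spread between libraries alone.

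Rows of 1 symbol were summed, each library's TPM was scaled by 1 median-of-ratios factor, and values were put on the log2(TPM + 1) scale. Tests covered genes with 1 TPM or more in 3 or more of the 6 WT libraries and were made with limma 3.58.1 in R 4.3.3, with a variance trend, 3 group means over all 10 libraries, a two-sided test of MI minus sham surgery, and Benjamini-Hochberg adjustment over all genes. A fold change on this scale understates that of low genes. The procedure was tested on simulated data.

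The text names a panel of 12 monocyte genes, the 10 genes of lowest p each way without overlap at 5 TPM or more (and 3 each way among microRNA, snoRNA, Gm and Rik names), per list at most 3 members, those of lowest p, and genes called under an alternative. Of the genes this rule picks, not all are reported here. There were 20 gene groups and 12 lists of cell markers. The comparison, the members and the lists were chosen with earlier results of these data known. Alternatives were no scaling, quantile normalization, another pseudocount (0.1 or 5), a filter at 5 TPM or none, the 6 WT libraries fitted alone, no trend, array weights, a replicate block and the removal of each library.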

Additional observations from a re-analysis of the deposited data

How the results depend on the processing

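The count of genes called was 0 with all libraries and 3 in the fit of the 6 WT libraries (1810009A15Rik, Lbhd1 and Ikzf1), and it lay between 0 and 2 on leaving out single libraries, with 1 without MI replicate 3 (Tomm6os), 2 without Foxp3DTR replicate 2 (1810009A15Rik and Lbhd1) and 1 without Foxp3DTR replicate 4 (Ikzf1). It was 0 under the other 9 alternatives. The replicate number as a block gave 0 called genes and 9143 genes with an interval within 2-fold. Deviations from the group means correlated at r = -0.09 and -0.05 between same-numbered libraries, for replicates 2 and 3. Crossed pairs of these replicates correlated at 0.09 and 0.12. So few pairs cannot decide whether libraries of 1 number shared a batch. The count of intervals within 2-fold lay between 8806 and 14341 in all settings, the ends being the filters with the fewest and the most genes. For the same 12351 genes it was 8851 with a pseudocount of 0.1 and 11464 with a pseudocount of 5. The count of genes without overlap was 843 and became 1775 without scaling and 1636 to 2303 with 1 WT library fewer, where fewer libraries have to be separated. Of 82 single genes, 10 turned in sign, all of the fixed panel and with groups that overlapped. Without scaling the log2 fold changes were -0.0894 for Adgre1, -0.13 for Ccr2 and -0.11 for Csf1r and H2-Ab1. The median of all genes was -0.17 in that setting. After quantile normalization the fold changes were -0.10 for Ccr2, -0.071 for Csf1r and -0.042 for H2-Ab1. With array weights they were -0.10 for Ccr2, 0.0353 for Il1b and 0.16 for Nr4a1. On leaving out single libraries, Adgre1 lay between -0.033 and 0.18, Ccr2 between -0.21 and 0.20, Csf1r between -0.11 and 0.25, Cx3cr1 between -0.17 and 0.53, H2-Ab1 between -0.21 and 0.45, Il1b between -0.68 and 0.34, Itgam between -0.0946 and 0.0475, Mki67 between -0.25 and 0.71, Nr4a1 between -0.63 and 0.38, and S100a8 between -1.54 and 0.0679. The cause was not tested. There were 3 libraries per group and no counts, with 6.03, 3.13 and 8.04 M reads (M, 1e6) in sham replicates 1 to 3. Differences of under 2-fold in genes under 5 TPM were mostly not detectable. Larger differences and those of higher genes failed the adjusted test of all 10 libraries too. Camp had a log2 fold change of -4.03 (adjusted p = 0.875, limma) and Ikzf1 one of -1.48 (adjusted p = 0.975, limma).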

Other observations

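The ratio of S100a8 to S100a9, which encode the 2 subunits of calprotectin and lie in the same gene cluster, was 0.907, 0.940 and 0.923 in the sham libraries. In the MI libraries it was 7.10, 1.62 and 2.54 in replicates 2, 3 and 4. Sham replicate 3, with the most RNA of both genes, had the same ratio as the other sham libraries. In the 4 Foxp3DTR libraries after MI the ratio was 2.02, 1.76, 1.75 and 1.54, above every sham library and, for MI replicates 2 and 4, below the WT values. The ratio was chosen after its values were seen and was not tested.

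The summed neutrophil markers were at 752, 707 and 1688 TPM in the sham libraries and 871, 504 and 741 TPM in the MI libraries. Sums of B-cell markers lay between 17.2 and 32.0 TPM, of platelet markers between 17.9 and 31.9 TPM and of plasma cell markers between 321 and 654 TPM, each highest in sham replicate 3. Markers of basophils and mast cells lay between 1.56 and 24.7 TPM, also highest in that library. Markers of conventional dendritic cells (117 to 169 TPM), plasmacytoid dendritic cells (164 to 263 TPM), red pulp macrophages (298 to 451 TPM) and eosinophils (15.2 to 33.0 TPM) overlapped between the groups.

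Rpph1, the RNA of RNase P, was at 1311, 6540 and 7937 deposited TPM in the sham libraries and 4415, 2499 and 2704 in the MI libraries, so that sham replicate 1 held the lowest and sham replicate 3 the highest value. Lyz2, the lysozyme gene of myeloid cells, varied less, between 29196 and 42358 deposited TPM over the 6 libraries.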
